A study of Mus musculus with 8 samples.

Results

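Transcripts of 7 genes for matrix and coagulation proteins were followed in myeloid cells of sanroque mice, namely *Fn1*, *Vcan*, *Tgfbi*, *Thbs1*, *Spp1*, *F13a1* and *F10*. All 7 were found by symbol among the 54188 genes of the count table, and all passed the filter on low counts. They were chosen by their levels in the Gr-1lo and Gr-1hi libraries of these data, so the differences between these subsets are given as a description, and tests are given for the spleen (SP) against the bone marrow (BM). Sanroque mice are homozygous for the san allele of Roquin (Roquin san/san) on the C57BL/6 background and develop a lupus-like disease; all mice used here carried the allele, and they were labelled as female and 20 weeks old. CD11b+Gr-1hi cells (labelled G-MDSC, for granulocytic myeloid-derived suppressor cells) and CD11b+Gr-1lo cells (labelled M-MDSC, for the monocytic kind) had been sorted by FACS from SP and BM, and each of the 4 groups held 2 RNA-seq libraries, numbered 5 and 6 for SP Gr-1hi, 7 and 8 for SP Gr-1lo, 9 and 10 for BM Gr-1hi, and 11 and 12 for BM Gr-1lo cells. The study took BM cells of matching phenotype as the reference for SP cells and describes them as autologous. Some SP and BM libraries may thus come from the same mice, apart from library 5, whose sex transcripts differed from those of every BM library. The labels do not tie libraries to mice or state whether mice were pooled.

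Monocytes are a known source of secreted matrix and clotting proteins. Fibronectin (*Fn1*) is laid down as fibrils that cells grip through integrins, versican (*Vcan*) is a large chondroitin sulfate proteoglycan that binds hyaluronan, and the protein of *Tgfbi* is a secreted adhesion protein induced by TGF-beta. Thrombospondin 1 (*Thbs1*) and osteopontin (*Spp1*) are matricellular proteins, which act on cells through receptors such as CD36, CD47, CD44 and integrins rather than as structural fibres. In coagulation, factor X (*F10*), once activated, cleaves prothrombin to thrombin, and the A subunit of factor XIII (*F13a1*) is a transglutaminase that cross-links fibrin and attaches fibronectin to the clot.

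Library totals ran from 33453580 to 68316154 counts, and the spread between the 2 libraries of each group was larger than counting noise (chi-square per degree of freedom, 20.7 to 74.3). *Ly6g*, a marker of granulocytic cells, had a mean of 743 ± 82.2 CPM (counts scaled to the library size) in BM Gr-1hi and 4.21 ± 1.61 CPM in BM Gr-1lo cells (SD, n = 2), and *Csf1r*, the receptor for M-CSF, had means of 453 and 154 CPM in BM Gr-1lo and Gr-1hi and of 709 and 319 CPM in SP Gr-1lo and Gr-1hi cells. The labelled sex was not borne out by the transcripts: *Ddx3y*, on the Y chromosome, was at 33.7 to 82.6 CPM in 7 libraries and at 0 counts in library 5, while *Xist*, which is transcribed from the inactive X chromosome, reached 12032 counts in library 5 and 9898 in library 7, with no more than 5 elsewhere. Library 7 thus held both transcripts. The libraries with *Xist*, 5 and 7, were both of SP, so the sex transcripts differed in part along with the tissue. Library 5, without *Ddx3y*, matched no BM library in these transcripts and does not appear to share mice with them. The part of sex in any difference between the tissues was not tested. Values without libraries 5 and 7 are given for the counts of genes below. T cell, B cell and plasma cell markers were also higher in SP than in BM libraries, as detailed further on, and their part in any difference between the tissues was not tested.

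The 7 genes lie on 5 chromosomes of GRCm38 and each is protein-coding: *Fn1* at chr1:71585520-71653200 (minus strand), *Thbs1* at chr2:118111876-118127133 (plus), *Spp1* at chr5:104435118-104441050 (plus), *F10* at chr8:13037308-13056676 (plus), and *F13a1* at chr13:36867178-37050244 (minus), *Tgfbi* at chr13:56609523-56639562 (plus) and *Vcan* at chr13:89655312-89742509 (minus). Genes annotated across *Fn1*, *F13a1*, *Vcan*, *Thbs1* and *Spp1* had at most 1.79 CPM in any library, the highest being *Gm4117* on the strand opposite to *Vcan*, and *Gm42793*, on the strand of *Spp1*, reached 1.44 CPM. Values of the members near that level, such as those of *Vcan* in Gr-1hi cells and of *Spp1*, are therefore less certain. RefSeq promoter windows (GRCm38.p6) were at hand for 5 of the 7 genes, with a pair of windows each for *F13a1* and *Spp1*. Shown here are the 250 bases before the start site, 5′ to 3′ on the gene's strand, of the 3 genes with a window that were far lower in Gr-1hi than in Gr-1lo cells (*Vcan*, chr13:89742513-89742762, minus; *F13a1*, chr13:37050245-37050494, minus; *F10*, chr8:13037058-13037307, plus) and of *Spp1*, which was not (chr5:104434861-104435110, plus). Capitals mark GAGGAA (the core of sites for PU.1, the myeloid transcription factor), CACCC or its complement GGGTG (the core of KLF sites) and TATAAA (the TATA box).
Vcan: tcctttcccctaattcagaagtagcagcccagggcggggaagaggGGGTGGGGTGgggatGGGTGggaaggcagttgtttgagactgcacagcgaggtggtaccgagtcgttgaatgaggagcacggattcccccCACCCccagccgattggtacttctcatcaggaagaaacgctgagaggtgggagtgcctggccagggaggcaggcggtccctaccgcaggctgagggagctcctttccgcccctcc
F13a1: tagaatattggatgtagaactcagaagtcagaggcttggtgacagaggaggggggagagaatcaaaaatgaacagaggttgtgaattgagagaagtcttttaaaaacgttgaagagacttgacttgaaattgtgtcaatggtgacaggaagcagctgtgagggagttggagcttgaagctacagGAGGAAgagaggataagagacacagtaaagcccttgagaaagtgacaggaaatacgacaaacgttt
F10: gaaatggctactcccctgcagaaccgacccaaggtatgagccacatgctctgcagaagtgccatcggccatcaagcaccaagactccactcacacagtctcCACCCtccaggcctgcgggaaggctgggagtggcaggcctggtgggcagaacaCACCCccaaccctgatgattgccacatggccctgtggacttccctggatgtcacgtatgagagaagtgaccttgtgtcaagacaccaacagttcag
Spp1: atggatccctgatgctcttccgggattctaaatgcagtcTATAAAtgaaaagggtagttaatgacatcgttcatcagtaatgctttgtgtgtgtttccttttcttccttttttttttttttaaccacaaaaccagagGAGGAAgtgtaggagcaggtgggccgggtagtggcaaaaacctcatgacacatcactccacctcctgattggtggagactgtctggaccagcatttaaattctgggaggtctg
GAGGAA stood 66 bases before the start site of *F13a1* and 113 bases before that of *Spp1*, and was in none of the windows of *Vcan*, *F10* and *Tgfbi*. The windows searched also reach past the start site, beyond the bases shown. GAGGAA lay there in both windows of *F13a1*, 17 and 14 bases on. Searched on both strands, these letters are in 28.3% of all 32851 RefSeq windows of that full length, so the matches describe the sequences and show no use of a site. CACCC was found for *Vcan*, *F10*, *Tgfbi* and the other window of *F13a1*, and is in 57.5% of all windows. TATAAA was found for *Spp1* alone among the 5 genes, 211 bases before the start site, against 13.6% of all windows. The core of the cAMP response element TGACG was found for *F13a1* alone (20.8%), and the C/EBP motif TTGCNNAA for the other window of *Spp1* alone (10.8%).

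The members differed in their pattern across the 4 groups, shown in the plot of CPM by library. *Fn1*, *Vcan*, *F13a1* and *F10* were abundant in Gr-1lo and scarce in Gr-1hi cells, *Tgfbi* was abundant in both, *Thbs1* was highest in BM Gr-1hi cells, and *Spp1* was low throughout. Counted per exon length and scaled to the library (TPM), the mean level in BM Gr-1lo cells was 960 TPM for *Tgfbi*, 814 for *F13a1*, 809 for *Fn1*, 238 for *F10*, 149 for *Vcan*, 24.8 for *Thbs1* and 13.8 for *Spp1*. Both libraries of *Tgfbi*, at 996 and 924 TPM, were above those of *F13a1*, at 869 and 759 TPM, while *Fn1*, at 972 and 646 TPM, overlapped both genes. In SP Gr-1lo cells the order was the same, with *Tgfbi* at 1038 ± 32.3 TPM, *F13a1* at 509 ± 61.2 TPM and *Fn1* at 377 ± 106 TPM (SD, n = 2). *Tgfbi* also led in Gr-1hi cells, with means of 350 TPM in BM and 481 TPM in SP, whereas *Fn1* was at 2.26 and 0.245 TPM and *Vcan* at 0.513 and 0.157 TPM. Together the 7 genes took 0.582% to 1.02% of all counts in the Gr-1lo libraries and 0.0691% to 0.0964% in the Gr-1hi libraries.

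**Figure D1:**
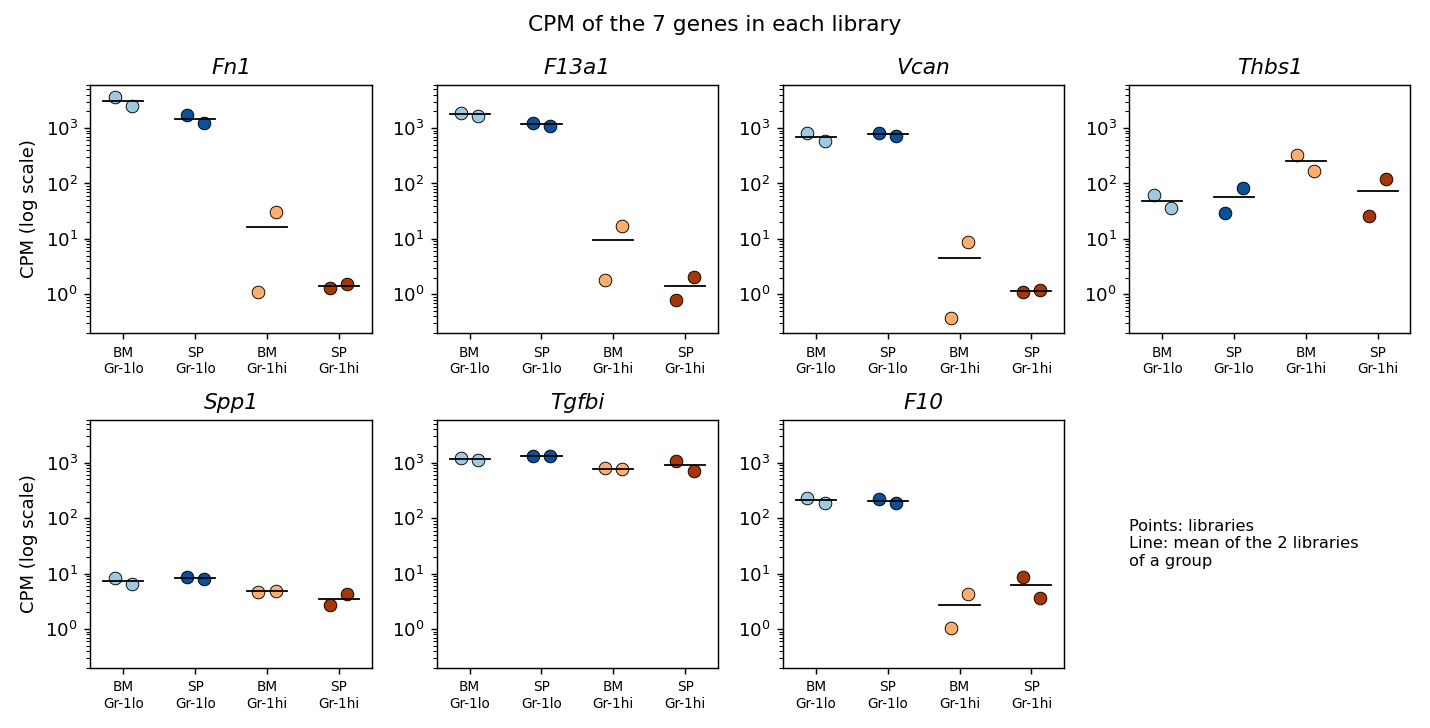
CPM of each gene (log scale) in the 8 libraries, as points grouped by tissue and subset, with a line at the mean of the 2 libraries of a group. *Fn1*, *Vcan*, *F13a1* and *F10* sit at 185 to 3656 CPM in Gr-1lo cells and at most at 31.2 CPM in Gr-1hi cells, with library 10 of BM Gr-1hi far above library 9 for *Fn1* (31.2 against 1.12 CPM).

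*Fn1* had 3656 and 2474 CPM in BM Gr-1lo (libraries 11 and 12), 1753 and 1219.6 CPM in SP Gr-1lo (7 and 8), 1.12 and 31.2 CPM in BM Gr-1hi (9 and 10) and 1.33 and 1.53 CPM in SP Gr-1hi cells (5 and 6). The order was thus BM Gr-1lo, then SP Gr-1lo, then both Gr-1hi groups, whose libraries overlapped. *Vcan*, in the same order of groups and libraries, had 820.4 and 572, 827 and 704, 0.374 and 8.71, and 1.08 and 1.18 CPM. Its Gr-1lo groups overlapped each other, as did its Gr-1hi groups, and the lowest value, in library 9, rested on 10 counts. *Tgfbi* had 1209 and 1142, 1328 and 1324, 815 and 761, and 1078 and 712 CPM. Every Gr-1lo library was above every Gr-1hi library for *Tgfbi*, although library 5 of SP Gr-1hi, at 1078 CPM, came near the lowest Gr-1lo value.

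The matricellular genes behaved otherwise. *Thbs1* had 60.8 and 36.8 CPM in BM Gr-1lo, 29.3 and 83.1 in SP Gr-1lo, 332 and 171 in BM Gr-1hi and 25.7 and 118 in SP Gr-1hi cells, so that BM Gr-1hi was highest and the other 3 groups overlapped. Its replicates differed by 4.60-fold in SP Gr-1hi, 2.84-fold in SP Gr-1lo and 1.94-fold in BM Gr-1hi cells. *Spp1* had 8.34 and 6.39 CPM in BM Gr-1lo, 8.70 and 7.94 in SP Gr-1lo, 4.75 and 4.79 in BM Gr-1hi and 2.74 and 4.27 in SP Gr-1hi cells, each from 91 to 685 counts. The Gr-1lo groups overlapped each other and stood above both Gr-1hi groups.

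Both coagulation genes followed the Gr-1lo pattern. *F13a1* had 1885 and 1677 CPM in BM Gr-1lo, 1236 and 1087 in SP Gr-1lo, 1.83 and 17.4 in BM Gr-1hi and 0.784 and 2.04 in SP Gr-1hi cells, with BM above SP in Gr-1lo cells and overlap in Gr-1hi cells. *F10* had 234 and 187 CPM in BM Gr-1lo, 225 and 185 in SP Gr-1lo, 1.05 and 4.33 in BM Gr-1hi and 8.59 and 3.64 in SP Gr-1hi cells, with the tissues overlapping in both subsets.

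The difference between the subsets of a tissue is the one the members were selected on, and it is described without a test. In BM, Gr-1hi against Gr-1lo cells had a log2 fold change (FC) of -7.58 for *Fn1*, -7.28 for *Vcan*, -7.54 for *F13a1* and -6.31 for *F10*, with standard errors (SEs) of 0.69 to 1.48. In SP the log2 FCs of these genes were -10.02, -9.40, -9.69 and -5.06. These 4 of the 7 members were over 8-fold lower in Gr-1hi cells in both tissues, in which 10.1% (BM) and 2.93% (SP) of the 17650 genes tested were called lower in Gr-1hi cells by the limits for subsets (FC over 8, adjusted p under 0.01). Libraries of the subsets did not overlap for 7 of the 7 members in BM, against 88.9% of all genes tested, and for 6 of 7 in SP, against 86.2%. *Tgfbi* was lower by far less, with -0.58 (SE 0.17) in BM and -0.57 (SE 0.17) in SP, and *Spp1* had -0.63 (SE 0.23) and -1.25 (SE 0.23). These smaller differences depended on the scaling: on quantile-normalized TPM they were -1.15 and -1.16 for *Tgfbi* and -0.19 and -0.92 for *Spp1*, and *Tgfbi* in SP was at -0.92 without library 5. *Thbs1* ran the other way in BM, where its log2 FC was 2.36 (SE 0.92) and 6.56% of genes were called higher in Gr-1hi cells. In SP it was 0.35 (SE 0.88), with overlapping libraries and 4.44% of genes called higher, and the sign turned to -1.16 without library 6 and to -0.23 without library 7. The median over all genes tested was -0.17 in BM and -0.09 in SP, and scaling by relative log expression (RLE) in place of TMM moved it to -0.03 and 0.04.

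**Figure D2:**
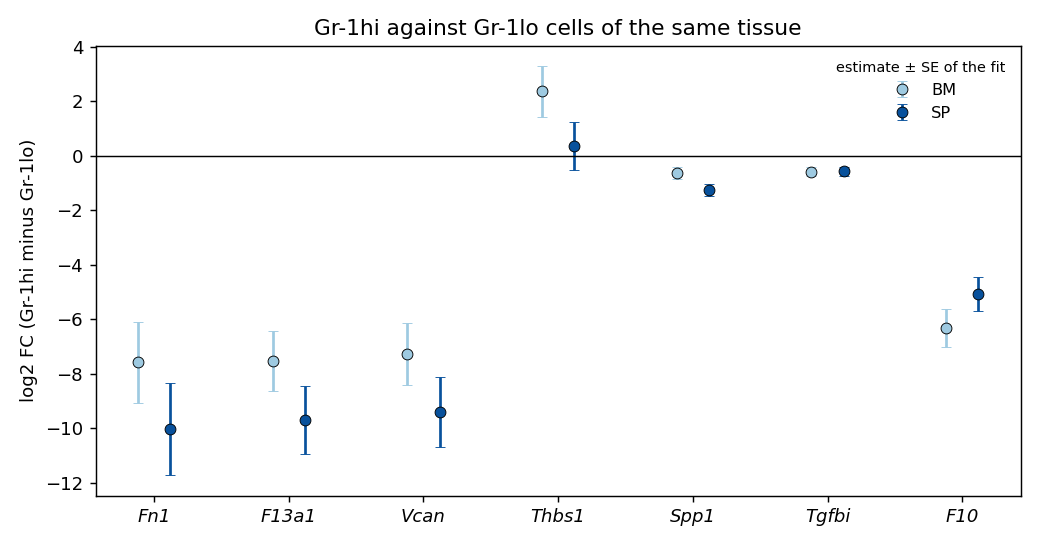
Log2 FC of Gr-1hi against Gr-1lo cells for each gene in BM and in SP (y axis, Gr-1hi minus Gr-1lo; points, estimates of the fit; bars, SE). *Fn1*, *Vcan*, *F13a1* and *F10* lie between -5.06 and -10.02, *Tgfbi* and *Spp1* between -0.57 and -1.25, and *Thbs1* is at 2.36 in BM.

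The BM values rest on library 10. Without it the BM log2 FCs were -11.33 for *Fn1*, -10.77 for *Vcan*, -9.84 for *F13a1* and -7.57 for *F10*, and without library 9 the first of these was -6.57. Library 10 exceeded library 9 by 0.980% of the mean BM Gr-1lo level for *Fn1*, 1.20% for *Vcan*, 0.875% for *F13a1* and 1.56% for *F10*. *Ccr2*, the chemokine receptor of classical monocytes, had 6.73 CPM in library 9 and 38.6 CPM in library 10, an excess of 1.81% of its BM Gr-1lo level. *Csf1r* went the other way, with 175 CPM in library 9 and 133 CPM in library 10. Of the 25 genes of a monocyte marker list, 22 were higher in library 10 than in library 9. The same held for 10 of 20 neutrophil, 4 of 20 tissue macrophage, 13 of 20 dendritic cell and 11 of 23 platelet genes. It also held for 8 of 22 stromal, 4 of 15 B cell, 7 of 15 T cell and 8 of 15 plasma cell genes. For the list of eosinophils with basophils and mast cells it was 5 of 17. Of the 1788 genes called lower in BM Gr-1hi cells, 65.2% were higher in library 10. Their median excess was 1.04% of the BM Gr-1lo level, with quartiles of -0.579% and 3.43%. Among the 772 of them with at least 10 CPM in BM Gr-1lo cells, 79.8% were higher in library 10. The median excess of these 772 genes was 1.53%, with quartiles of 0.338% and 3.02%. The share over all genes tested is not given here. *Tgfbi* (815 and 761 CPM) and *Thbs1* were lower in library 10, and *Spp1* (4.75 and 4.79 CPM) was higher by 0.556% of its BM Gr-1lo level. For *Tgfbi* and *Spp1* an excess of this size would be small beside their levels in library 9, so its presence or absence cannot be read. The part of Gr-1lo cells among the sorted Gr-1hi cells of that library was not tested, and in bulk libraries fewer cells of a type and less RNA per cell cannot be told apart.

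**Figure D3:**
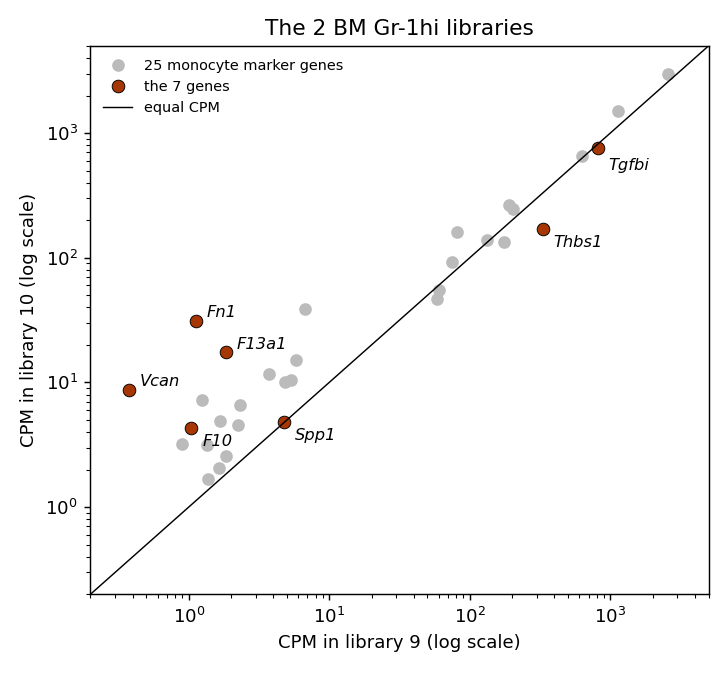
CPM of the 7 genes and of 25 monocyte marker genes in the 2 BM Gr-1hi libraries (x axis, library 9; y axis, library 10; both log scales; line, equal CPM). *Fn1*, *Vcan*, *F13a1* and *F10* lie above the line, by 4.14-fold to 27.8-fold, as do 22 of the 25 marker genes.

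In Gr-1lo cells, edgeR's quasi-likelihood test called none of the 7 genes different in SP from BM (limits, FC of 2 or more with an adjusted p up to 0.05), where 3.84% of all genes tested were called higher and 0.215% lower in SP. No member reached an unadjusted p of 0.05, and DESeq2 and the exact test on quantile-normalized TPM called 0 as well, as did the fit without libraries 5 and 7. The log2 FC was -1.04 for *Fn1* (SE 1.11, adjusted p = 0.663) and -0.62 for *F13a1* (SE 0.82, adjusted p = 0.734), with both SP libraries below both BM libraries for each gene. In the exact test *F13a1* was at -0.73 (adjusted p = 0.00306), not called because its FC was under the 2-fold limit. *Tgfbi* was at 0.17 (SE 0.17, adjusted p = 0.616), with both SP libraries above both BM libraries. Libraries did not overlap for 3 of the 7 members, against 59.7% of all genes tested. The model shares 1 estimate of spread per gene among the groups, including that between libraries 9 and 10. When the 4 Gr-1lo libraries were fitted alone, *Fn1* had -1.02 (SE 0.28, adjusted p = 0.106 by edgeR), and *F13a1* had -0.59 (SE 0.10, adjusted p = 0.0162), a decrease in SP that stays under the 2-fold limit. Without library 10, *Fn1* was at -1.03 (SE 0.23) and *F13a1* at -0.60 (SE 0.25). The SE of *F13a1* was thus wider than in the fit of the 4 Gr-1lo libraries alone. For *Vcan*, *Thbs1*, *Spp1* and *F10* the log2 FCs were 0.14, 0.21, 0.18 and -0.04 with overlapping libraries and SEs of 0.83, 0.88, 0.21 and 0.52. The median over the 7 members was 0.14, with 4 above 0 and 3 below, against -0.01 over all genes tested.

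**Figure D4:**
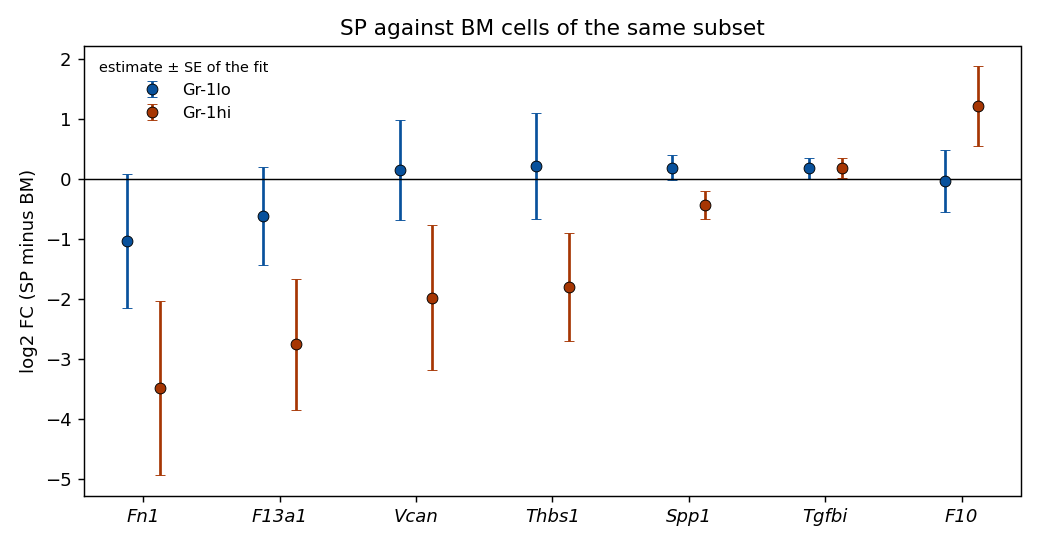
Log2 FC of SP against BM cells for each gene in Gr-1lo and in Gr-1hi cells (y axis, SP minus BM; points, estimates of the fit; bars, SE). In Gr-1lo cells *Fn1* (-1.04) and *F13a1* (-0.62) are the lowest, and in Gr-1hi cells *Fn1* (-3.49), *F13a1* (-2.76) and *Vcan* (-1.98) have long bars and *F10* is at 1.21.

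In Gr-1hi cells, again none of the 7 genes was called between SP and BM by edgeR's quasi-likelihood test, against 14.0% of all genes called higher and 1.48% called lower in SP. None was at an unadjusted p of 0.05, and the count stayed at 0 without libraries 5 and 7 and in the exact test on quantile-normalized TPM, while DESeq2 called 2, *Fn1* (log2 FC -3.55, adjusted p = 0.0245) and *F13a1* (-2.83, adjusted p = 0.0110). The estimates of the main fit were -3.49 for *Fn1* (SE 1.45, adjusted p = 0.126), -2.76 for *F13a1* (SE 1.09, adjusted p = 0.110) and -1.98 for *Vcan* (SE 1.21, adjusted p = 0.264). These 3 differences rested on library 10 of BM. Without it *Fn1* was at 0.25 and *Vcan* at 1.49, both turned in sign, and *F13a1* at -0.49. With library 10 as the only BM Gr-1hi library, *Fn1*, *F13a1* and *Vcan* were called lower in SP at -4.52, -3.71 and -3.01, under the assumption that it varies like the libraries of the other groups.

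*F10* went the other way in Gr-1hi cells, at 1.21 (SE 0.66, adjusted p = 0.210), and it was the 1 member called, at 2.45 (adjusted p = 0.0395), when library 10 was left out. The thrombospondin gene *Thbs1* was lower in both SP than in both BM libraries, at -1.80 (SE 0.90, adjusted p = 0.184), and *Spp1* at -0.44 (SE 0.24, adjusted p = 0.184) did not overlap either, against 67.8% of all genes without overlap. *Tgfbi* was at 0.18 (SE 0.17, adjusted p = 0.432). Without library 6, *Thbs1* was at -3.37, and without library 5 at -1.17. The median over the 7 members was -1.80, with 2 above 0 and 5 below, against 0.03 over all genes tested. Whether the subsets differed in these log2 FCs was not tested, since that contrast holds the difference the genes were selected on.

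Relative to the summed CPM of the 25 monocyte markers, which was 10734 to 12231 CPM in Gr-1lo and 5357 to 6430 CPM in Gr-1hi libraries, *Tgfbi* and *Spp1* were not lower in Gr-1hi libraries. Per 1000 CPM of the list, *Tgfbi* had 94.7 to 124 CPM in Gr-1lo and 117 to 199.8 CPM in Gr-1hi libraries, and *Spp1* 0.529 to 0.810 and 0.508 to 0.886 CPM. *Fn1* had 99.7 to 336 CPM per 1000 in Gr-1lo against 0.209 to 4.85 in Gr-1hi libraries, *Vcan* 47.5 to 77.0 against 0.0698 to 1.35, *F13a1* 88.8 to 173 against 0.145 to 2.71, and *F10* 15.1 to 21.5 against 0.195 to 1.59, so these 4 stayed far apart between the subsets. Granulocytes express some genes of the list as well: *Cybb*, a subunit of the phagocyte NADPH oxidase, averaged 2786 CPM in BM Gr-1hi and 1262 CPM in BM Gr-1lo cells, *Mpeg1* 642 and 2136 CPM, and *Ly6c2* 1324 and 1919 CPM.

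Platelets, stromal cells and tissue macrophages are other known sources of these proteins, and their markers were measured in the same libraries. *Pf4* and *Ppbp*, which define platelets, were at most 0.11 and 0.35 CPM, and 15 of the 23 genes of the platelet and megakaryocyte list stayed under 1 CPM in every library. The sum of that list was 32.6 to 54.0 CPM in Gr-1lo, 159 to 173 CPM in SP Gr-1hi and 221 to 223 CPM in BM Gr-1hi libraries. The sum was thus higher in Gr-1hi cells of both tissues and highest in BM Gr-1hi cells. *Thbs1* was also highest in BM Gr-1hi cells, and it overlapped between the subsets of SP. The list was led by *Itgb3*, *Gp1bb* and *P2ry12*, of which *Itgb3* averaged 106 CPM in BM Gr-1hi and 8.97 CPM in BM Gr-1lo cells. Of the 22 genes of the stromal, bone and endothelial list, 16 stayed under 1 CPM everywhere, and *Dcn*, *Col3a1* and *Col1a2* of fibroblasts were at most 0.165 CPM; the list summed to 46.3 to 131 CPM, led by *Runx2*, *Pecam1* and *Acp5*. Tissue macrophage markers summed to 1071 to 1250 CPM in SP Gr-1hi and 672 to 761 in BM Gr-1hi cells, and to 553 to 570.0 in SP Gr-1lo and 353 to 464 in BM Gr-1lo cells, led by the iron exporter *Slc40a1*, *Hmox1* and *Apoe*. Of these, *Slc40a1* had 462 to 825 CPM in Gr-1hi and 20.2 to 31.6 CPM in Gr-1lo libraries. *Apoe* went the other way, at 33.4 to 63.5 and 68.3 to 165 CPM, and *Hmox1* overlapped between the subsets. The part of these cells in the members' values was not tested.

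Most lymphoid markers were called higher in SP. Of 15 T cell genes, 15 were called higher in SP Gr-1lo and 14 in SP Gr-1hi cells, with sums of 39.3 to 192 CPM in SP against 2.91 to 11.9 CPM in BM, led by *Trbc2*, *Lck* and *Trbc1*. Of 15 B cell genes, 12 and 14 were called higher, led by *Ighm*, *Cd37* and *Cd22*, and of 14 plasma cell genes tested 12 and 14, led by *Igkc*, *Ighg2c* and *Xbp1*. Dendritic cell genes were called higher for 4 of 20 in Gr-1lo and 12 of 20 in Gr-1hi cells, led by *Cd74*, *H2-Aa* and *H2-Ab1*, and 2 were called lower in Gr-1hi cells, *Siglech* and *Clec10a*, both named after their values were seen. The 20 neutrophil genes, led by *S100a9*, *Ngp* and *S100a8*, summed to 5758 to 5788 CPM in BM Gr-1lo, 12177 to 13612 in SP Gr-1lo, 96570.2 to 131200.0 in SP Gr-1hi and 176250.0 to 190414 in BM Gr-1hi libraries. Eosinophil, basophil and mast cell genes, led by *Hdc*, *Kit* and *Siglecf*, summed to 1389 to 1781 CPM in Gr-1hi and 54.1 to 62.3 CPM in Gr-1lo libraries. Most of the Gr-1hi sums was *Hdc* alone, at 1263 to 1654 CPM there. Monocyte genes themselves were called higher in SP for 5 of 25 in Gr-1lo and 11 of 25 in Gr-1hi cells, with none called lower, and the 11 became 6 without library 5 and 4 without libraries 5 and 7. For dendritic cell genes the 12 became 7 and 6, and for plasma cell genes the 12 of Gr-1lo cells became 7 without library 8 or 11. The exact test on quantile-normalized TPM called 3 T cell, 3 B cell and 7 plasma cell genes higher in SP Gr-1lo cells, and 11, 12 and 8 in SP Gr-1hi cells.

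Other genes of the members' pathways are given as counts to be read against the 3.84% (Gr-1lo) and 14.0% (Gr-1hi) of all genes called higher in SP and the 0.215% and 1.48% called lower. No test set a list against other genes, and the counts of the matrix, proteoglycan, enzyme and TGF-beta lists in Gr-1lo cells are 1 gene or none. Of 31 coagulation and fibrinolysis genes tested, 3 were called higher in SP Gr-1lo and 9 in SP Gr-1hi cells and none lower, with a median log2 FC of 0.12 and 0.54 against -0.01 and 0.03 over all genes. *Tgm2*, a transglutaminase of the family of factor XIII, rose in Gr-1lo cells from 1.64 ± 0.379 to 20.7 ± 6.08 CPM (log2 FC 3.65, SE 0.25, adjusted p = 0.000396 by edgeR), and from 48.3 to 156 CPM in Gr-1hi cells (1.69, SE 0.21). *S100a10*, a subunit of the plasminogen receptor on cell surfaces, rose from 1.79 to 6.27 CPM in SP Gr-1hi cells (1.82, SE 0.24). The others in Gr-1lo cells were *Procr* and *F2r*, receptors for protein C and thrombin, at 1.66 and 1.22 CPM in SP and named after their values were seen. Both were called higher in SP Gr-1hi cells too, at 1.03 and 2.67 CPM. Without libraries 5 and 7 the counts were 3 and 5, and the 9 became 5 without library 5 and 4 without library 9 or 10; 6 genes were called lower in Gr-1hi cells without library 6, and the 3 became 5 without library 5 or 6 and 1 without library 11. The most abundant genes of the list, *Anxa2*, the urokinase receptor *Plaur* and *F5*, which encodes the cofactor of activated factor X, were not called between the tissues. All 3 were lower in SP than in BM Gr-1hi cells, by less than the 2-fold limit. Their log2 FCs there were -0.32, -0.74 and -0.85 (adjusted p = 0.0251, 0.0212 and 0.00535 by edgeR). *F5* averaged 74.7 and 98.6 CPM in BM and SP Gr-1lo cells and 414 and 229 CPM in BM and SP Gr-1hi cells, opposite to *F10* across the subsets.

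Of 30 genes for receptors of the members' proteins, 5 were called higher in SP Gr-1lo and 13 in SP Gr-1hi cells, with none lower and medians of 0.35 and 0.84. The syndecan *Sdc4*, which binds fibronectin through its heparan sulfate chains, rose in Gr-1hi cells from 0.354 to 5.41 CPM (3.93, SE 0.57, adjusted p = 0.00193 by edgeR). It was also called higher in SP Gr-1lo cells, from 0.280 to 4.89 CPM (4.14, SE 0.53). Both chains of the main fibronectin receptor rose in Gr-1hi cells as well, *Itga5* from 5.13 to 25.4 CPM (2.30, SE 0.17) and *Itgb1* from 41.2 to 87.3 CPM (1.08, SE 0.13), as did *Cd36* from 1.60 to 11.3 CPM (2.83, SE 0.45), and these 3 were named after their values were seen. *Itgam* and *Itgb2*, both among the most abundant of the list, were not called between SP and BM. *Itgam* fell in Gr-1hi cells from 4895 to 3125 CPM (-0.65, SE 0.14, adjusted p = 0.00845 by edgeR), which is under the 2-fold limit. Without libraries 5 and 7 the counts were 4 and 8, the 13 became 8 without library 5, and the 5 became 3 without library 7 or 12 and 2 without library 8 or 11.

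Structural matrix genes were mostly near or under the filter, with 24 tested of the 56 found in the count table. The list held 59 symbols. One was called higher in SP Gr-1lo cells, *Col15a1* at 0.252 CPM, named after its value was seen. It was called higher in SP Gr-1hi cells too, at 0.934 CPM. In Gr-1hi cells 5 were higher and 2 lower, with a median of 0.60. *Fgl2*, a fibrinogen-like protein with prothrombinase activity, rose in Gr-1hi cells from 282 ± 9.61 to 1033 ± 71.9 CPM (1.87, SE 0.24, adjusted p = 0.00135 by edgeR), and *Col5a1* fell from 29.1 to 12.2 CPM (-1.26, SE 0.30). *Emilin2* and *Emilin1*, the other abundant members of the list, were not called. Without libraries 5 and 7, 3 matrix genes were called higher and none lower in Gr-1hi cells and none was called in Gr-1lo cells; the 1 in Gr-1lo cells was lost without any single library but 5, and the 2 lower became 0 without library 5 or 9 and 1 without library 10. Of 15 genes for proteoglycans and hyaluronan synthesis, none was called in Gr-1lo cells, and 1 was higher and 2 lower in Gr-1hi cells; *Srgn*, for serglycin, *Chst12* and *Xylt1* were the most abundant and were not called. The 2 lower became 0 without library 5 and without libraries 5 and 7, and 1 without library 9 or 10, and the 1 higher became 2 without library 6.

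Among 18 genes for enzymes that cleave versican or other matrix and their inhibitors, 1 was called higher in SP Gr-1lo cells, the membrane collagenase *Mmp14*, from 2.59 ± 0.644 to 23.9 ± 10.6 CPM (3.21, SE 0.47, adjusted p = 0.00753 by edgeR). In Gr-1hi cells 3 rose and 3 fell, among them cathepsin S (*Ctss*), from 122 to 394 CPM (1.70, SE 0.32), and the neutrophil collagenase *Mmp8*, from 7202 to 3015 CPM (-1.26, SE 0.25). *Mmp14* was among those that rose in Gr-1hi cells too, from 0.615 to 4.76 CPM (2.96, SE 0.62). *Mmp9* at 11580.1 and 6064 CPM and *Adam8* at 2164 and 1121 CPM in BM and SP Gr-1hi cells were not called. The 3 that rose became 0 without library 5 and 1 without library 9 or without libraries 5 and 7, and *Mmp14* in Gr-1lo cells was not called without library 11 or 12, while 2 were called lower there without library 7 and without libraries 5 and 7. Of 21 TGF-beta pathway genes, 1 was called higher in Gr-1lo cells and 3 in Gr-1hi cells, with none lower, which is near the shares of all genes called higher (3.84% and 14.0%). *Tgif1*, a repressor of SMAD-dependent transcription, rose in Gr-1hi cells from 2.43 to 8.57 CPM (1.81, SE 0.21, adjusted p = 0.000592 by edgeR), and *Lrrc32*, called in both subsets and named after its values were seen, averaged at most 0.943 CPM. Without libraries 5 and 7 the counts were 0 and 1; the 1 in Gr-1lo cells was not called without library 7, 8, 11 or 12. *Furin*, *Nrros* and *Acvrl1*, the most abundant of the list, were not called.

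**Figure D5:**
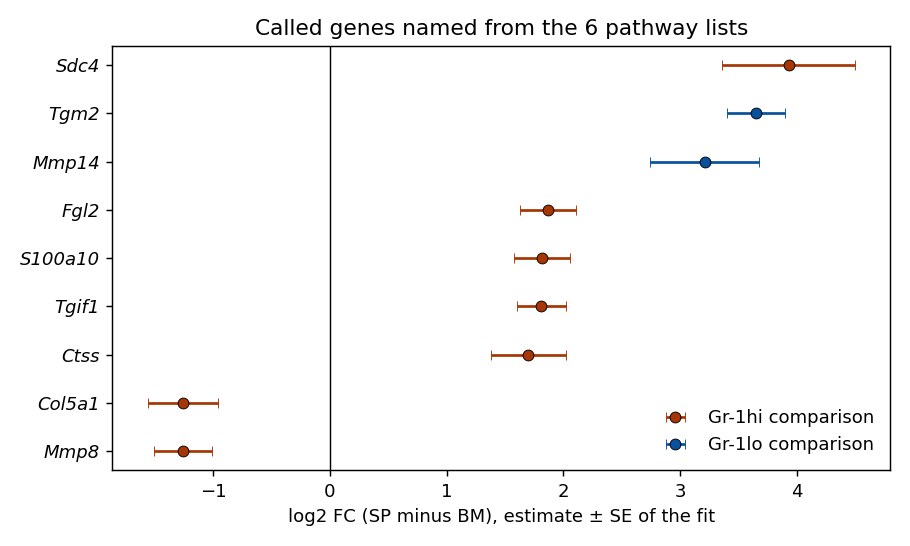
Log2 FC of SP against BM cells for the called genes with the largest rise or fall in each pathway list among those with at least 5 CPM (x axis; points, estimates of the fit; bars, SE; colours, the subset compared). *Sdc4* (3.93), *Tgm2* (3.65) and *Mmp14* (3.21) rose most, and *Col5a1* and *Mmp8* fell by 1.26.

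Over the 8 libraries, the log2 CPM of *Fn1*, *Vcan* and *F13a1* had a Pearson's r of 0.99 with each other and of 0.93 to 0.97 with *F10*, while *Spp1* and *Tgfbi* had 0.77 to 0.92 and 0.76 to 0.89 with these 4. *Thbs1* had negative values with all other members, from -0.11 to -0.71. With 4 groups of 2 libraries these values mostly describe the step between the subsets, and no test is given. The genes of at least 10 CPM whose levels were most like those of a member were *Gmppb*, *Esco2* and *Asf1b* for *Fn1* (r of 0.994 to 0.996), *Gmppb*, *Cd300lg* and *Psmb5* for *F13a1* (0.998 to 0.999), and *Kntc1*, *Ccr2* and *Ulbp1* for *Vcan* (0.995). For *F10* they were *Galnt9*, *Gm8520* and *Gm42674* (0.997 to 0.999), for *Tgfbi* *P2rx4*, *Glg1* and *Gpatch2* (0.967 to 0.973), for *Spp1* *Ap2a2*, *Ints6* and *Tpp1* (0.977 to 0.992) and for *Thbs1* *Stambpl1*, *4931406C07Rik* and *Nat8l* (0.934 to 0.957). *Esco2* and *Asf1b*, which act in cell division, had 27.8 to 37.8 and 61.2 to 86.0 CPM in Gr-1lo libraries, a smaller step from their Gr-1hi levels of 4.85 to 9.58 and 8.17 to 17.5 CPM than that of *Fn1*. *Stambpl1*, the nearest to *Thbs1*, ranged only from 21.1 to 28.9 CPM.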

How the data were processed

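RNA-seq counts of CD11b+Gr-1hi and CD11b+Gr-1lo cells from SP and BM of sanroque mice were analysed; the labels assign 2 libraries to every one of the 4 groups. Per the study's methods, the authors checked reads with FastQC, filtered them with Sickle, aligned them to GRCm38.p6 with STAR and counted them per gene with featureCounts. The libraries were made with a strand-specific kit. The deposited counts are whole numbers without normalization for 54188 genes; the number of animals behind a library is not given in the sources used here, so p-values measure the spread between libraries.

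Counts were scaled by TMM and fitted with edgeR 4.0.16 in R 4.3.3 (filterByExpr, 17650 genes; robust quasi-likelihood model, 1 term per group, 4 residual degrees of freedom). Adjusted p-values (Benjamini-Hochberg) cover all genes tested. Thresholds were those of the study. CPM are TMM-scaled, and TPM used exon lengths of GENCODE M21 for 53947 genes, without the other 241. SEs are the log2 FC divided by the root of its F. The limit for a gene at 0 is 3 counts (0.0348 to 0.124 CPM by library), for counting error only. The procedure was tested on simulated data.

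The members and the lists of genes were chosen with earlier results of these data known. Besides the members, the text names the 3 genes most correlated with each member, the called gene with the largest rise and fall of each pathway list in each comparison of SP with BM (at least 5 CPM in the higher group), the 3 most abundant genes of each list (1 of them is not reported here), and *Xist*, *Ddx3y*, *Ly6g*, *Itgam* and *Csf1r*. The lists cover 6 pathways (coagulation and fibrinolysis, receptors, structural matrix, proteoglycans, cleaving enzymes, TGF-beta) and 10 cell types (monocytes, neutrophils, tissue macrophages, platelets, stromal cells, dendritic cells, B cells, T cells, plasma cells, and eosinophils with basophils and mast cells), with the members left out. Alternatives were RLE and upper-quartile scaling, DESeq2 1.42.0, no filter, a fit of the 4 libraries compared, edgeR's exact test after quantile normalization of TPM, each library left out in turn, and libraries 5 and 7 left out together. Protein sequences were not analysed here.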

Additional observations from a re-analysis of the deposited data

How the results depend on the processing

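The counts of members called between SP and BM, and of members over 8-fold lower in Gr-1hi cells, were the same in 57 of 60 recomputations. In Gr-1lo cells the count was 0 and in both subset comparisons it was 4 under all 15 alternatives. In Gr-1hi cells the count of 0 became 2 with DESeq2, and ranged from 0 to 3 when single libraries were left out, with 3 without library 9 and 1 without library 10. For the log2 FCs of single members, 374 of 420 recomputations kept direction and call, 6 passed the threshold, 27 untested values moved by more than the spread and 13 turned in sign. In Gr-1lo cells the turned values of SP against BM were: without library 12, -0.10 for *Vcan*, -0.11 for *Thbs1* and -0.00 for *Spp1*; without library 8, -0.74 for *Thbs1* and 0.10 for *F10*; and for *F10* 0.13 without library 11 and 0.00 with no filter. In Gr-1hi cells they were 0.25 for *Fn1* and 1.49 for *Vcan* without library 10, and for *Tgfbi* -0.23 without library 5 and -0.13 without libraries 5 and 7. For *Thbs1*, Gr-1hi against Gr-1lo cells of SP turned to -1.16 without library 6 and to -0.23 without library 7. With single libraries left out, these log2 FCs of SP against BM in Gr-1lo cells ran from -0.10 to 0.42 for *Vcan*, -0.74 to 0.77 for *Thbs1*, -0.00 to 0.38 for *Spp1* and -0.19 to 0.13 for *F10*; in Gr-1hi cells from -4.52 to 0.25 for *Fn1*, -3.01 to 1.49 for *Vcan* and -0.23 to 0.38 for *Tgfbi*; and for *Thbs1* between the subsets of SP from -1.16 to 1.28. The cause was not tested. Counts over gene lists were within 1.5 times of the reported ones in 1666 of 1920 recomputations. The 9 coagulation genes called higher in SP Gr-1hi cells ranged from 1 (exact test) to 10, with 4 without library 9, 4 without library 10 and 5 without library 5, and the 13 receptor genes from 5 (exact test) to 13; in Gr-1lo cells they ranged from 1 to 5 and from 0 to 6. The matrix genes called higher in Gr-1hi cells ranged from 1 to 5, the cleaving enzymes from 0 to 3 and the TGF-beta genes from 0 to 4. No paired analysis was possible because the groups share no replicate numbers: the study calls the BM cells autologous, but which SP and BM libraries share a mouse is not labelled. Library 5 differed from every BM library in its sex transcripts. With 2 libraries a group, the SEs of *Fn1*, *F13a1* and *Vcan* in Gr-1hi cells were 1.09 to 1.45 on the log2 scale.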
